A study of Mus musculus with 24 samples.

Results

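The transcripts described here are those of 9 genes for secreted, carrier and other membrane proteins of the choroid plexus epithelium: Ttr, Enpp2, Kl, Folr1, Prlr, F5, Tmem72, Mfrp and Ptgds. They are 9 of the 49568 gene symbols counted in hippocampal RNA of male mice, and all 9 were among the 18482 symbols that passed the filter on low counts. The genes were chosen by the measured values of these libraries, since their housing fold changes and their place among the genes that led the first principal component were known when they were picked. Differences between housing conditions are therefore given below as a description without a test, whereas differences between genotypes were tested. RNA came from the whole hippocampus of wild-type (WT) mice and of MSK1 KD mice, a line in which the kinase MSK1, the product of Rps6ka5, is made but is inactivated by the point mutation D194A in its N-terminal kinase domain. Both lines were on a C57-Bl/6J background and were bred separately, so that they were not littermates. Mice lived in standard housing (SH) or, from birth, in an enriched environment (EE) of large rat cages with a running wheel and toys that were moved and replaced, and enriched males were housed in larger groups after weaning. Age was 12 weeks by the sample labels. The 4 groups are written WTSH, WTEE, KDSH and KDEE, with 6, 5, 6 and 5 libraries used here out of 6 sequenced in each.

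Levels are given as CPM, the counts of a gene relative to the counts on all genes of that library after TMM scaling, in parts per 1000000; the scaling evens out differences in composition. The 22 libraries held 8911999 to 56752074 counts on genes, and 14% to 18.6% of counted fragments lay outside single genes. A floor of 3 counts stood for 0.0529 to 0.337 CPM, and covers counting error only. Rps6ka5 lay between 19.3 and 29.0 CPM in every library of both genotypes, which checks no label, since the mutation changes 1 residue and does not remove the transcript. Libraries 33B (WTEE) and 34B (KDEE) failed the quality control of the study and were left out. The study removed a further 5 libraries for poor intragroup correlation, namely 12 (WTSH), 31B and 35A (WTEE), 2 (KDSH) and 9 (KDEE); they are used here and named where a value rests on them. Of the enriched libraries, 5 carry a letter in their code and no standard-housed library does; what the letter marks is not given in the sources used here.

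The choroid plexus is a fold of vascular tissue in the brain ventricles, covered by an epithelium that makes cerebrospinal fluid and moves hormones, vitamins and proteins between blood and that fluid. In the lateral ventricle it lies against the hippocampus, and Ttr is among its most abundant transcripts. Several of its other products, such as Enpp2 and Ptgds, are also made by cells outside the plexus, oligodendrocytes and the meninges among them. In RNA of a whole tissue, fewer cells of a type and less RNA per cell cannot be told apart.

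Ttr (ENSMUSG00000061808, GRCm38 chr18:20665280-20674321) encodes transthyretin, the carrier of thyroxine and, with retinol binding protein, of retinol in cerebrospinal fluid. In WTSH its level was 28.5 CPM in the lowest library, 42.7 at the median and 1667 in the highest, library 12. The 5 WTEE libraries held 4738, 3692 and 4651 CPM in 16, 17 and 33A, but 41.8 and 34.2 CPM in 31B and 35A. KDSH ran from 16.8 CPM through a median of 97.8 to 2635 in library 2, and KDEE held 901, 1969, 164, 2687 and 5105 CPM in libraries 7, 8, 9, 32A and 36A. Both housing conditions therefore held libraries at either end, and 3 of 5 WTEE and 2 of 5 KDEE libraries lay above every standard-housed library of their genotype. From the lowest library (5, KDSH) to the highest (36A, KDEE) the level rose 305-fold, and the SD between libraries of a group on the log2 scale, 2.78, was the 3rd largest of the 18482 genes, whose median SD was 0.18.

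Enpp2 (ENSMUSG00000022425, chr15:54838901-54952892) encodes autotaxin, the secreted enzyme that makes lysophosphatidic acid. It was counted at 180 to 883 CPM in WTSH (median 209) and at 175 to 1385 CPM in KDSH (median 235). The WTEE libraries held 2310, 1778, 191, 2620 and 169 CPM in 16, 17, 31B, 33A and 35A, and the KDEE libraries 617, 1144, 245, 1432 and 2511 CPM in 7, 8, 9, 32A and 36A. The libraries low in Ttr still held 169 to 255 CPM of Enpp2, so that its whole range was 15.5-fold against 305-fold for Ttr.

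F5 (ENSMUSG00000026579, chr1:164151838-164220277) encodes coagulation factor V, a secreted cofactor of thrombin generation. Its level was 2.03 to 25.9 CPM in WTSH (median 2.69) and 1.08 to 44.0 CPM in KDSH (median 3.30). In WTEE it was 85.9, 69.8, 2.16, 101 and 1.57 CPM in libraries 16, 17, 31B, 33A and 35A, and in KDEE it was 16.6, 39.1, 6.35, 56.5 and 90.7 CPM in 7, 8, 9, 32A and 36A. Of the 2 WTEE libraries that were low in Ttr, 31B lay inside the range of WTSH and 35A below it, and the range over all libraries was 93.8-fold.

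Folr1, Prlr and Kl are proteins of the epithelial membrane. Folr1 (ENSMUSG00000001827, chr7:101858331-101870788), the folate receptor that carries folate across the epithelium, lay at 1.09 to 17.1 CPM in WTSH and 0.811 to 25.1 CPM in KDSH, with medians of 1.5 and 2.03. It reached 39.9, 35.2 and 40.2 CPM in WTEE libraries 16, 17 and 33A but 1.56 and 1.03 CPM in 31B and 35A, and in KDEE it ran from 3.61 CPM through a median of 19.0 to 40.6. Prlr (ENSMUSG00000005268, chr15:10177238-10349180), the prolactin receptor, had medians of 5.87 CPM in WTSH and 5.44 in KDSH and highest values of 26.7 and 33.1 CPM there. The enriched libraries held 63.5, 40.9, 5.47, 77.9 and 4.24 CPM of Prlr in WTEE (16, 17, 31B, 33A, 35A) and 18.1, 34, 7.67, 47.6 and 82.4 CPM in KDEE (7, 8, 9, 32A, 36A). For Prlr 3 of 5 KDEE libraries lay above every KDSH library, for Folr1 1 of 5. Kl (ENSMUSG00000058488, chr5:150952607-150993817), which encodes Klotho, the co-receptor of the hormone FGF23 that is also shed from the membrane, lay at 19.3 to 81.6 CPM in WTSH and 13.7 to 119 CPM in KDSH. Its WTEE levels were 18.4 to 234 CPM with a median of 147, and its KDEE levels 22.9 to 215 CPM with a median of 98.2. The 3 genes spanned 50.1-fold (Folr1), 20.3-fold (Prlr) and 17-fold (Kl) over the 22 libraries.

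Mfrp (ENSMUSG00000034739, chr9:44101729-44109187), a frizzled-related membrane protein, and Tmem72 (ENSMUSG00000048108, chr6:116679063-116716913), a transmembrane protein of little known function, came closest to absence in the low libraries. Tmem72 was 0.135 to 21.9 CPM in WTSH (median 0.469) and 0.0849 to 30.4 CPM in KDSH (median 0.776), where the lowest value is the floor of 3 counts in library 6. It was 55.5, 45.2, 0.232, 78.0 and 0.487 CPM in WTEE libraries 16, 17, 31B, 33A and 35A, and 8.04, 29.8, 1.64, 44.6 and 63.8 CPM in KDEE libraries 7, 8, 9, 32A and 36A. Its within-group SD of 2.92 on the log2 scale was the 2nd largest of all genes tested. Mfrp ran from 0.642 to 17.2 CPM in WTSH, from 0.895 to 53.8 CPM in WTEE, from 0.216 to 22.9 CPM in KDSH and from 2.41 to 51.0 CPM in KDEE, with medians of 0.719, 35.4, 1.14 and 20.5 CPM. In GENCODE M21 37.9% of the exon bases of Mfrp are shared with C1qtnf5, Gm20444 or Rnf26. C1qtnf5 and Gm20444 had 0 counts in every library, and the counting without strand could not give a read on shared bases to 1 gene, so that Mfrp is uncertain in level.

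Ptgds (ENSMUSG00000015090, chr2:25466709-25470046), the lipocalin-type prostaglandin D synthase that also carries small lipids, behaved otherwise. It lay at 218 to 375 CPM in WTSH (median 289) and 247 to 518 CPM in KDSH (median 281). WTEE held 753, 819, 155, 258 and 507 CPM in libraries 16, 17, 31B, 33A and 35A, and KDEE held 502, 263, 177, 510 and 476 CPM in 7, 8, 9, 32A and 36A. Library 33A, among the 3 highest for the other 8 genes, was low for Ptgds, whereas 35A, low for the others, was high for it. The range over all libraries was 5.27-fold, and the within-group SD of 0.64 ranked 1340th of 18482. No KDEE library exceeded the highest KDSH library for Ptgds.

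**Figure D1:**
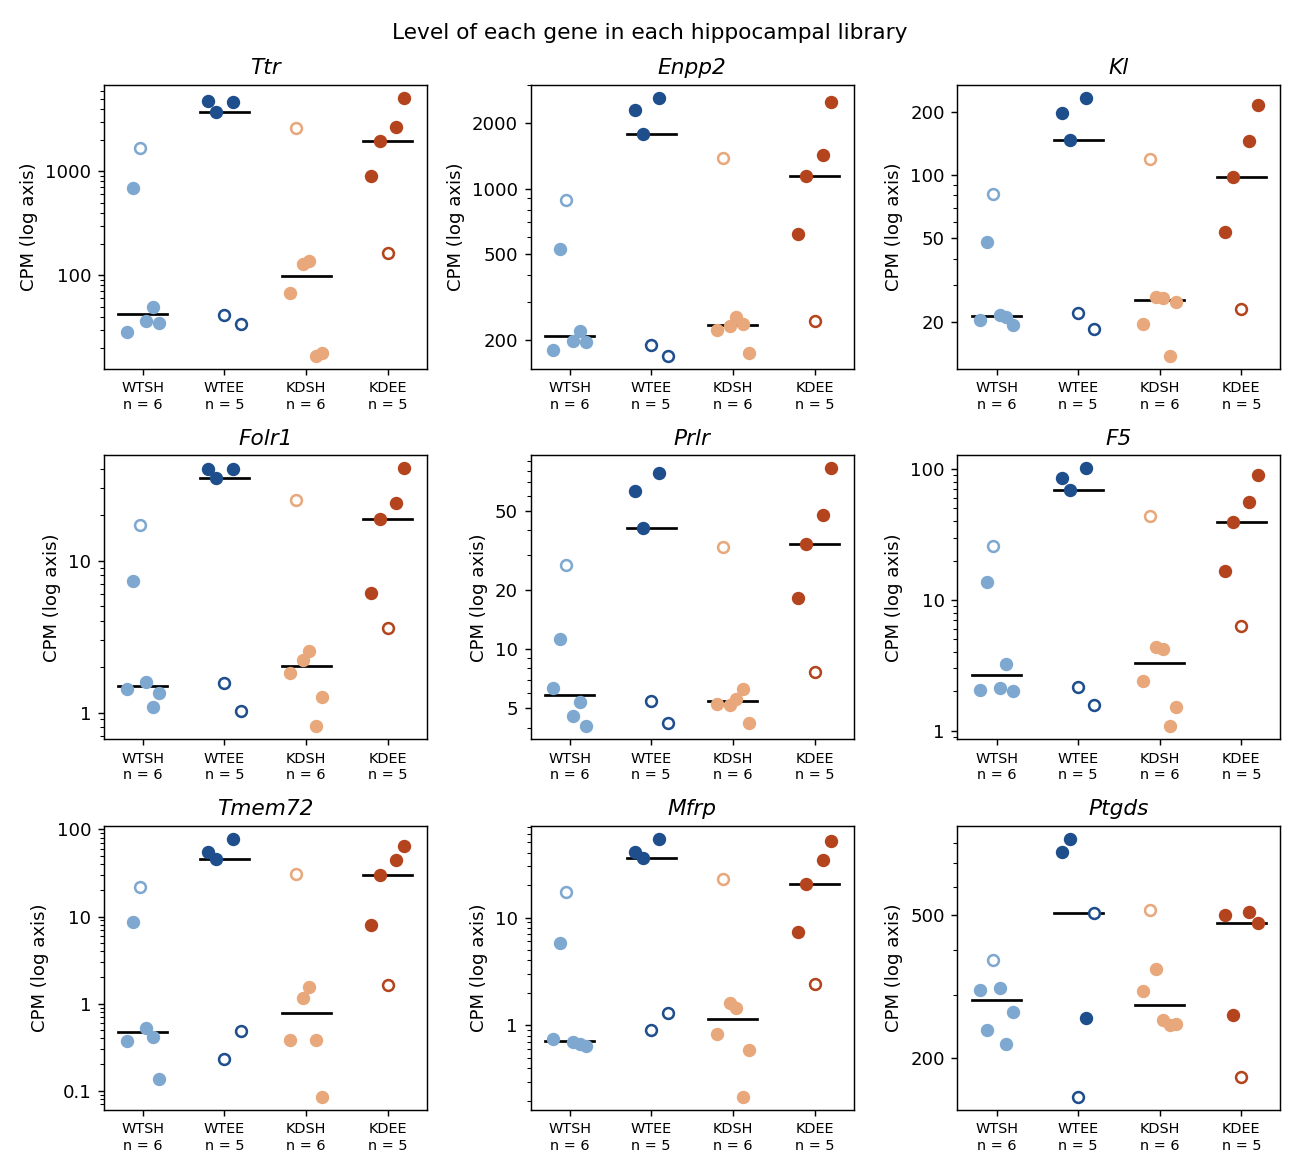
CPM of each gene on a log axis, with 1 point for each library and a bar at the group median; open points are the 5 libraries that the study removed for poor intragroup correlation. For 8 genes the 3 filled WTEE points lie above all WTSH points and neither open one does, whereas the Ptgds points of the groups overlap. The genes were chosen with their housing differences known. The share of all genes that separate in this way is not given, so that nothing is read from this count.

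Ordered by Ttr, the libraries fell on both sides of a gap. In 12 of them Ttr lay between 16.8 and 164 CPM, in the other 10 between 686 and 5105 CPM, and the gap between these was 4.19-fold. The lower side held 4 WTSH, 2 WTEE, 5 KDSH and 1 KDEE libraries and the upper side 2, 3, 1 and 4. For all 8 genes other than Ptgds the same 10 libraries lay above the same 12 without overlap: Enpp2 ended at 255 CPM below and began at 527 above, and Tmem72 ended at 1.64 and began at 8.04 CPM. For Ttr this holds by construction, since the gap was placed by it. The share of all genes that separate in this way is not given here, so that nothing is read from the count. For Ptgds both sides overlapped, at 155 to 507 CPM below and 239 to 819 CPM above. Depth did not follow this order, with 8911999 to 56752074 counts on genes in the lower libraries and 13003876 to 47291601 in the upper ones, and a Pearson r of -0.06 between log2 depth and log2 Ttr over 22 libraries. Of the 5 lettered libraries 2 lay below the gap and 3 above.

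**Figure D2:**
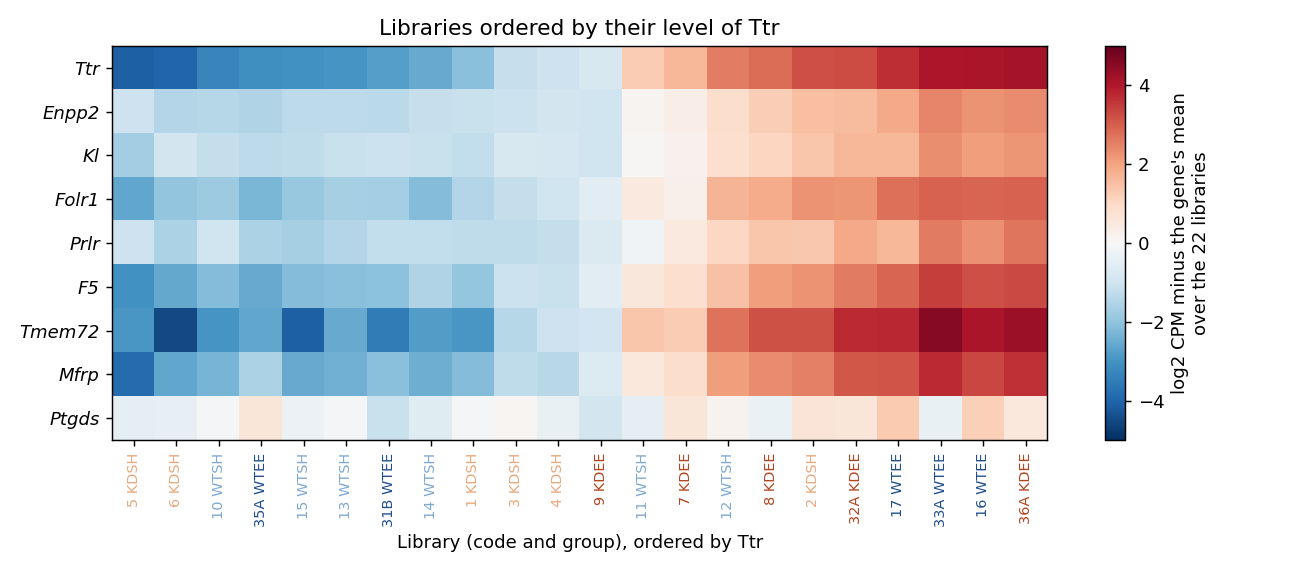
Log2 CPM of each gene minus its own mean over the 22 libraries, with libraries ordered from left to right by Ttr and labelled by code and group. In 8 rows each of the 10 libraries at the right has a higher value than each of the 12 at the left, and the row of Ptgds shows no such order.

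The 8 genes kept nearly 1 order among libraries. Spearman's rho over the 22 libraries was 0.85 to 0.99 for the 28 pairs among them. With Ttr, rho was 0.99 for F5, 0.97 for Folr1, 0.96 for Mfrp, 0.95 for Tmem72, 0.94 for Enpp2, 0.93 for Kl and 0.88 for Prlr, and 0.48 for Ptgds. Since the libraries lie in separate clusters, the same was computed on each side of the gap. Among the 10 upper libraries Pearson's r of log2 CPM with Ttr was 0.97 to 0.99 for the 7 genes and 0.43 for Ptgds. Among the 12 lower ones it was 0.95 for F5, 0.88 for Folr1, 0.85 for Mfrp, 0.83 for Tmem72, 0.66 for Enpp2, 0.60 for Kl and 0.41 for Prlr, and -0.13 for Ptgds. Without the 2 libraries farthest from the median of Ttr, r over the rest was 0.95 to 0.99 for the 7 genes and 0.48 for Ptgds. These are descriptions over libraries that share their groups and the choice of genes, and carry no p.

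The genes differed in how far they followed Ttr down. Per 1000 CPM of Ttr, F5 lay between 15.6 and 84.8 CPM, Mfrp between 8.07 and 38.0 and Tmem72 between 3.93 and 22.6, which are ranges of 5.45-, 4.71- and 5.75-fold while Ttr itself moved 305-fold. Folr1 moved 10.4-fold relative to Ttr. Enpp2, Prlr and Kl moved 29.5-, 33.8- and 34.3-fold relative to it, and kept levels of 169, 4.06 and 13.7 CPM or more in every library. For Ptgds the ratio to Ttr moved 268-fold, nearly as far as Ttr.

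**Figure D3:**
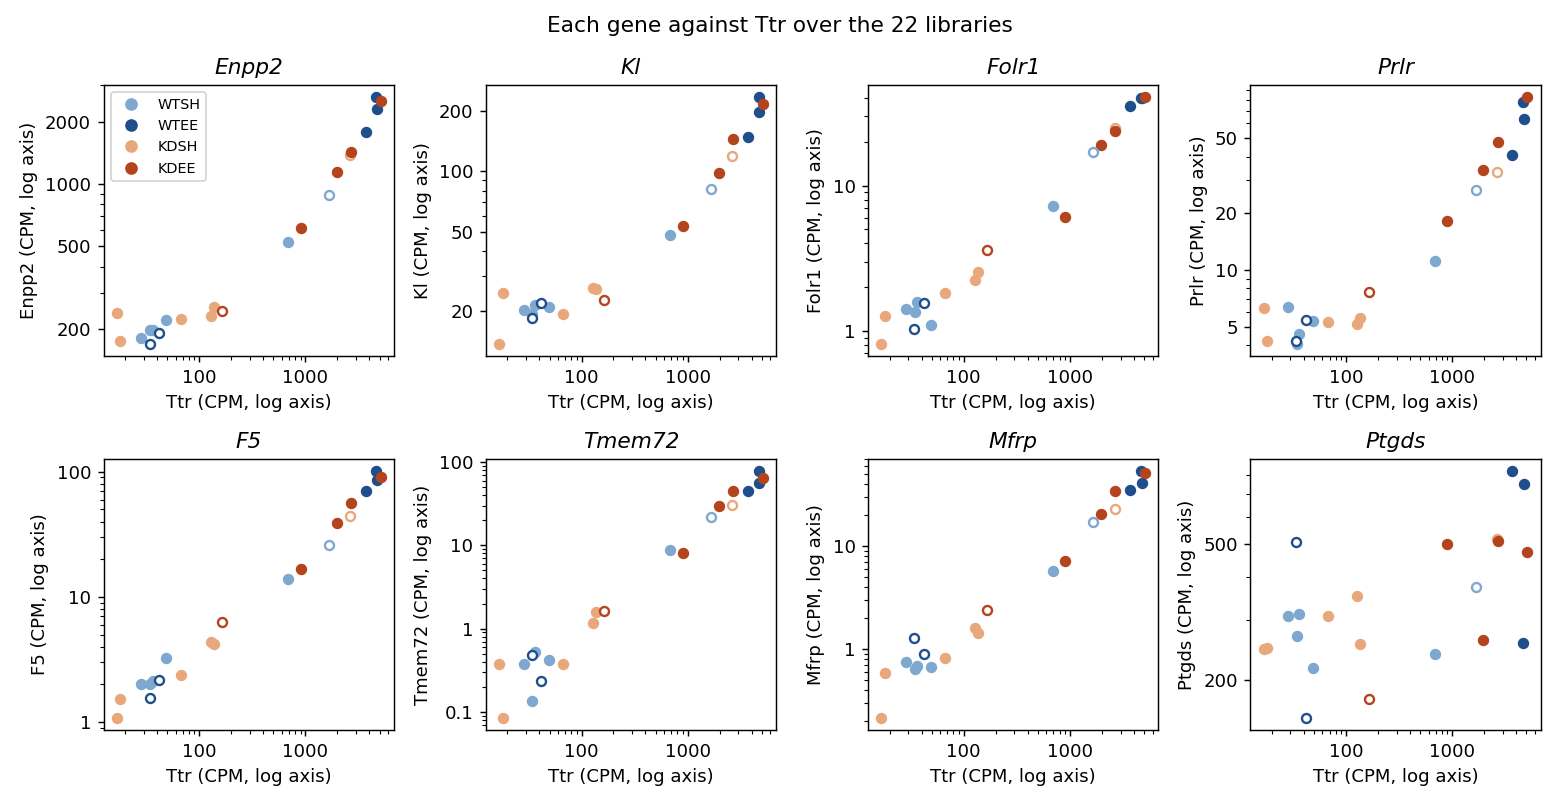
CPM of 8 genes against CPM of Ttr, both on log axes, with 1 point per library, filled for the 17 libraries of the study and open for the 5 it removed, coloured by group. F5, Folr1, Tmem72 and Mfrp fall along a line over the whole range, Enpp2, Kl and Prlr level off where Ttr is low, and Ptgds is scattered.

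Per kilobase of exon (the union of the annotated exons of each gene), the order of the median levels over the 22 libraries was Ptgds at 187 CPM per kb, Ttr at 127, Enpp2 at 43.3, Kl at 2.80, Folr1 at 1.34, F5 at 0.723, Mfrp at 0.463, Prlr at 0.458 and Tmem72 at 0.0935. The union counts exons that may not be used here, and it was longest for Tmem72 and Prlr, at 17.2 and 15.3 kb. Ptgds and Ttr changed places, each being the highest of the 9 in 11 libraries, and Mfrp and Prlr did so too, with Mfrp the higher in 13 of 22. Ttr lay above Enpp2 in 16 libraries and F5 above Mfrp in 19, whereas the other 4 neighbours kept their order in all 22. The place of Mfrp beside F5 and Prlr is uncertain. Its length includes the 37.9% of exon bases shared with other genes, where reads could not be given to 1 gene. At its highest Ttr reached 4305 CPM per kb and Ptgds 497. In the lowest library for each, Ttr fell to 14.1 CPM per kb, below the lowest Enpp2 of 29.3.

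Of the 9 genes, 6 have an entry in the RefSeq promoter table (GRCm38.p6), with 8 start sites between them, as Prlr has 3. The 250 bases before the RefSeq start are shown for 3 genes that moved with Ttr over wide ranges, and for Ptgds, which did not move with them. This start can differ from that of the GENCODE span given above. The window of Ptgds lies within its GENCODE span, and those of Tmem72 and Mfrp lie partly within theirs. Both strands were searched for an OTX site (TAATCC), a homeodomain core (TAATTA), a forkhead core (TGTTTA) and an E-box (CAGCTG), and matches stand in capitals.
F5, chr1:164151585-164151834, plus strand: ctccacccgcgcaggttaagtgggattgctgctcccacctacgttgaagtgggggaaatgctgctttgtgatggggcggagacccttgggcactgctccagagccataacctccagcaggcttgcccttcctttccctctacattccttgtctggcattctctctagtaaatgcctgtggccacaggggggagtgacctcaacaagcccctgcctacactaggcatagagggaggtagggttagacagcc
Tmem72, chr6:116716759-116717008, minus strand: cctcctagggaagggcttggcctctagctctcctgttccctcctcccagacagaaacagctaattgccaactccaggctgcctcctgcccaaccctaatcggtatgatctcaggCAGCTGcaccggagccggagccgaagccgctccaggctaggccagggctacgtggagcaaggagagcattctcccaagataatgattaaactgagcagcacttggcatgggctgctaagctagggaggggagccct
Mfrp, chr9:44101520-44101769, plus strand: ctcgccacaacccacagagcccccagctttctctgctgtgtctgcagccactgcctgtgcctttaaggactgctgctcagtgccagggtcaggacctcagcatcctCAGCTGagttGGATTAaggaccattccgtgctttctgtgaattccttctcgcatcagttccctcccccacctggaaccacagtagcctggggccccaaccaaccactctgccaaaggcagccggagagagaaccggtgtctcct
Ptgds, chr2:25469750-25469999, minus strand: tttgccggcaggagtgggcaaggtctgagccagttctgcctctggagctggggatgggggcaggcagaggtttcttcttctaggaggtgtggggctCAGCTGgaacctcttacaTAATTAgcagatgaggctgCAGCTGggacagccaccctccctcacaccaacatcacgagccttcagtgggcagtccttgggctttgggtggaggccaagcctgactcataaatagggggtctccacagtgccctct
The E-box lay in Tmem72, in Mfrp, before the second start of Prlr and at 2 places in Ptgds, and occurs in 13% of the 32851 promoter windows of this length. Mfrp held the OTX site on the opposite strand, 134 bases before its start, and 6.25% of all windows hold 1 or more. Ptgds held the homeodomain core, found in 4.84% of windows. F5 and the window of Kl, on chr5:150952357-150952606, held none of the 4 motifs. The forkhead core, in 12% of windows, was found, among the 6 genes searched, only before the first and second start of Prlr. A match says only that these letters are present.

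The question asked of genotype was whether loss of MSK1 activity changed these transcripts within each housing condition. In WTSH against KDSH the edgeR quasi-likelihood test called 0 of the 9 genes (background 0% of 18482 genes, with 1065 at an unadjusted p below 0.05 and 2 called by DESeq2). All 9 had a lower fitted level in WTSH, by a median log2 fold change of -0.24 against -0.01 over all genes, and none had an unadjusted p below 0.05. The value for Ttr was -0.26 ± 1.23 (SE, adjusted p = 0.988), for Enpp2 -0.18 ± 0.64 (adjusted p = 0.983) and for Ptgds -0.16 ± 0.30 (adjusted p = 0.965). The direction rested on single libraries. Without KDSH library 2 the value for Ttr was 2.5 and without WTSH library 12 it was -1.58, and over the 17 libraries of the study it was 1.18.

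In WTEE against KDEE 0 of 9 genes were called (background 0%, with 482 of 18482 genes at an unadjusted p below 0.05 and 0 called by DESeq2). The fitted level was higher in WTEE for 8 genes, with a median log2 fold change of 0.24 against 0.00 over all genes. Ptgds had 0.36 ± 0.33 (SE) and Ttr 0.27 ± 1.34, whereas Prlr had -0.03 ± 0.69, each with an edgeR adjusted p of 0.99999. The interaction, which asks whether the housing difference was unlike in the 2 genotypes, called 0 of 9 genes (background 0%, with 377 genes at an unadjusted p below 0.05 and 0 called by DESeq2), and its values ran from 0.06 for Prlr to 0.60 for F5 with SEs of 0.45 to 1.82. With SEs of up to 1.34 within a housing condition, genotype differences of the size fitted here were not detectable over these libraries.

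Between housing conditions the fitted log2 fold changes of EE over SH in WT mice were 2.66 for Ttr, 1.94 for Enpp2, 1.82 for Kl, 2.29 for Folr1, 2.01 for Prlr, 2.72 for F5, 2.83 for Tmem72, 2.70 for Mfrp and 0.79 for Ptgds, beside a median of 0.01 over all genes. In MSK1 KD mice they were 2.12, 1.52, 1.5, 1.73, 1.95, 2.12, 2.37, 2.31 and 0.27 in the same order. Over the 22 libraries 0 of 9 genes were called in either genotype (background 0% in each, with 1598 genes at an unadjusted p below 0.05 in WT and 1779 in KD, and 18 and 4 called by DESeq2). Over the 17 libraries 9 of 9 were called in WT (background 3.55%) and 8 of 9 in KD, all but Ptgds (background 1.74%). Nothing is read from these counts, as housing differences chose the genes. Single standard-housed libraries decided much of the size. Without KDSH library 2 the log2 fold change in KD was 4.88 for Ttr and 5.21 for Tmem72, and without WTSH library 12 that in WT was 3.98 for Ttr, 4.31 for Tmem72 and 4.07 for Mfrp.

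**Figure D4:**
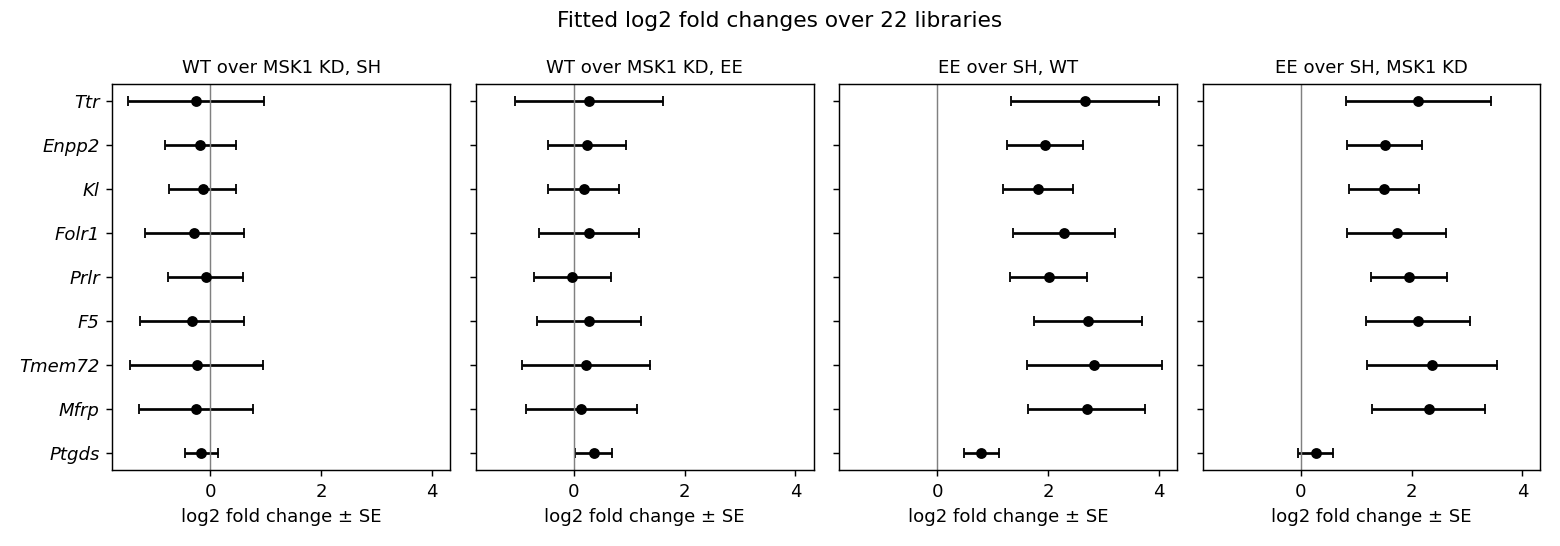
Fitted log2 fold changes over 22 libraries with their SE as bars, for WT over MSK1 KD in each housing condition and for EE over SH in each genotype. The genotype values lie between -0.34 and 0.36 with bars that span 0 except for Ptgds under enrichment, and the housing values lie between 0.27 and 2.83.

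Other transcripts of the choroid plexus epithelium varied alongside. By Pearson's r of log2 CPM over the 22 libraries, among 15016 genes with a mean of 1 CPM or more, the 9 genes themselves left out, Ttr was most like the sodium bicarbonate transporter gene Slc4a5 (0.99), the secreted BMP antagonist Sostdc1 (0.99) and the potassium channel subunit gene Kcne2 (0.99). F5 had Sostdc1 (0.99), Clic6 (0.99) and Slc4a5 (0.99), and Tmem72 had Sostdc1 (0.99), the water channel gene Aqp1 (0.99) and Clic6 (0.99). Abca4 was among the 3 for Enpp2 (0.99), Kl (0.99), Folr1 (0.99), Prlr (0.98) and Mfrp (0.98). Beside it stood Ace, which encodes angiotensin-converting enzyme, for Enpp2, Kl and Prlr, with Gm44250 for Enpp2, Col8a2 for Kl, Trpv4 and Aqp1 for Folr1, Slc2a12 for Prlr, and Prr32 and Slc4a5 for Mfrp. Libraries from both sides of the gap enter these values, which are descriptions without a p.

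A list of 17 other epithelial genes of the choroid plexus, led in level by Car12, Clic6 and Slc13a4, summed to 63.2 to 209 CPM in WTSH, 57.3 to 548 in WTEE, 41.0 to 293 in KDSH and 65.1 to 535 in KDEE. Clic6, a chloride channel family member, had medians of 2.96 CPM in WTSH and 75.2 in WTEE, and 4.02 and 51.5 in KDSH and KDEE. All 17 had a higher fitted level with enrichment in both genotypes, by median log2 fold changes of 2.24 and 1.84, and 0 of 17 were called (background 0%). At an unadjusted edgeR p below 0.05 were 17 in WT and 11 in KD. Nothing is read from these counts, as the list was chosen with earlier results of these data known. A list of 9 other secreted products summed to 1734 to 2090 CPM in WTSH and 1674 to 2484 in WTEE, with medians of 1854 and 2148, and to 1689 to 2449 CPM in KDSH and 1753 to 2359 in KDEE, with medians of 2046 and 1927. It was led by Cst3 and Clu, whose levels in the groups overlapped, and by Igf2, at medians of 44.3 CPM in WTSH, 204 in WTEE, 41.9 in KDSH and 99.4 in KDEE. Of the 9 genes, 7 in WT and 6 in KD had a higher fitted level with enrichment, and 0 were called. Of those with a higher level, 6 in WT and 3 in KD had an unadjusted edgeR p below 0.05.

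Markers of neighbouring tissue moved less. The sum of 10 meningeal genes, among them Dcn and Col1a2, was 86.3 to 115 CPM in WTSH, 76.8 to 170 in WTEE, 62.3 to 134 in KDSH and 76.4 to 146 in KDEE. It followed Ttr with r = 0.76 over 22 libraries, and 10 of the 10 genes in WT and 9 in KD had a higher fitted level with enrichment, by medians of 0.58 and 0.39. Of these, 5 in WT and 0 in KD had an unadjusted edgeR p below 0.05. The 7 ependymal genes, led by Foxj1, summed to 28.7 to 37.9 CPM in WTSH, 20 to 48.6 in WTEE, 28.3 to 49.5 in KDSH and 29.1 to 38.8 in KDEE (r = 0.57 with Ttr). By gene, 5 of the 7 had a lower fitted level with enrichment in each genotype, with median log2 fold changes of -0.14 in WT and -0.63 in KD, and 4 in KD had an unadjusted p below 0.05. Of all 18482 genes, 1598 did so in WT and 1779 in KD. The 5 blood genes summed to 29.4 to 128 CPM over all groups (r = 0.61). With enrichment all 5 had a higher fitted level in WT, 4 of them at an unadjusted edgeR p below 0.05. In KD 4 of the 5 had a lower one, 0 of them below that p. Hippocampal neuron genes, 9 in number, summed to 7897 to 9530 CPM, with r = -0.58, 10 oligodendrocyte genes to 4815 to 7180 CPM with r = -0.09, 6 astrocyte genes to 3331 to 5112 CPM with r = -0.36, and 5 endothelial genes to 141 to 182 CPM with r = 0.12. With enrichment 9 of 10 oligodendrocyte genes in WT and 10 of 10 in KD had a lower fitted level. Their median log2 fold changes were -0.14 and -0.17, and 3 and 5 genes had an unadjusted edgeR p below 0.05. Lower levels were also fitted for 6 of 9 neuron genes in each genotype, and for 4 and 5 of 6 astrocyte genes. Of the 5 endothelial genes, 4 were higher in WT and 2 in KD. No gene of these lists was at 0 in every library, 0 were called in any comparison, and their part in the differences between libraries was not tested. Neuronal and glial genes were thus abundant in every library, as the label of whole hippocampus has it.

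Ptgds followed the meningeal genes more closely than it followed Ttr, as a description with no test of the difference. Its 3 most similar genes were Fmod (r = 0.95), which encodes the collagen-binding proteoglycan fibromodulin, Slc22a6 (0.94), an organic anion transporter gene that is also on the meningeal list, and Ogn (0.93), which encodes the proteoglycan osteoglycin. Fmod ran from 2.52 CPM in 31B, the lowest library for Ptgds as well, to 23.4 in library 16, and its r with Ttr was 0.56. With the sum of the 10 meningeal genes Ptgds had r = 0.81, with that of the 17 epithelial genes 0.63, and with that of the 10 oligodendrocyte genes -0.10. The 8 others also followed the meningeal sum, with r from 0.69 for Prlr to 0.76 for Ttr. Spearman's rho with that sum was 0.747 for Ptgds, below Ttr and Tmem72 at 0.779, F5 at 0.765 and Mfrp at 0.749. It was 0.642 to 0.714 for Enpp2, Kl, Folr1 and Prlr. The other 8 genes varied with the epithelial list, with r from 0.96 for Tmem72 to 0.99 for Kl. Ptgds followed that list less closely, at r = 0.63. Genes and lists were chosen with earlier results of these data known, so these values do not test the label of a choroid plexus product.

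**Figure D5:**
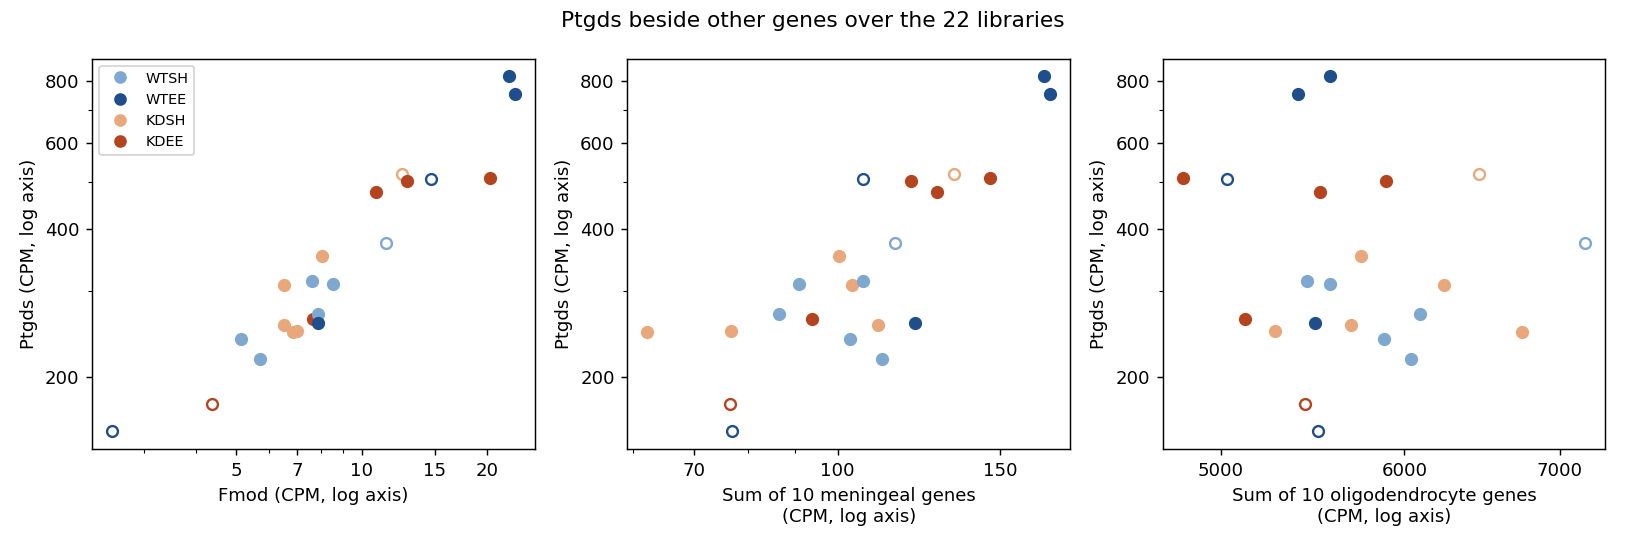
CPM of Ptgds against CPM of Fmod, the summed CPM of 10 meningeal genes and the summed CPM of 10 oligodendrocyte genes, all on log axes, with 1 point per library, open for the 5 libraries the study removed. Points rise together for Fmod (r = 0.95) and the meningeal sum (0.81), and not for the oligodendrocyte sum (-0.10).

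Genes of the pathways in which these proteins act were taken from lists of 65 genes, of which 52 passed the filter on low counts. None was called in a housing or genotype comparison or in the interaction (background 0% in each). With enrichment 32 of the 52 had a higher fitted level in WT and 29 in KD, and 7 and 3 of those had an unadjusted p below 0.05. Of the 20 and 23 with a lower fitted level, 2 and 4 did. Over all genes 52.1% in WT and 50.9% in KD had a higher fitted level. In either direction 1598 and 1779 of the 18482 genes had an unadjusted p below 0.05. The genes described next are among the 2 of each list with the largest housing difference in WT.

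For the ligands of transthyretin these were Stra6, the receptor through which cells take up retinol, and Slco1c1, a thyroxine transporter of brain capillaries and choroid plexus. Stra6 held 27.4, 26.8, 14.8, 25.3 and 11.8 CPM in WTEE libraries 16, 17, 31B, 33A and 35A, against 11.5 to 16.9 in WTSH, so that 3 of 5 lay above every WTSH library. The log2 fold change was 0.60 ± 0.19 (SE, edgeR adjusted p = 0.401). In KD it was 0.14 ± 0.19 (adjusted p = 0.837). Its interaction was 0.46 ± 0.27 with an edgeR adjusted p of 0.99996, so that a difference between genotypes was not shown. Slco1c1 had 0.43 ± 0.16 in WT (adjusted p = 0.438) and followed Ttr over the libraries with r = 0.84, and Stra6 followed Ttr with r = 0.78.

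For prolactin, Cish, a feedback inhibitor of cytokine receptors that STAT5 induces, had log2 fold changes of 0.66 ± 0.23 in WT (SE, edgeR adjusted p = 0.427) and 0.92 ± 0.24 in KD (adjusted p = 0.453). The 5 KDEE libraries held 2.83, 2.24, 2.08, 3.39 and 4.57 CPM in 7, 8, 9, 32A and 36A, and the KDSH libraries 1.4 to 2.00. Stat5a, the transducer itself, had 0.38 ± 0.18 in WT (adjusted p = 0.563). Over the 22 libraries r with Ttr was 0.76 for Cish and 0.63 for Stat5a. Prl, the ligand, had at most 4 counts in any library. Of the folate genes, Slc19a1, the reduced folate carrier, had 0.26 ± 0.13 in WT and 0.24 ± 0.13 in KD (edgeR adjusted p = 0.581 and 0.562). Its r with Ttr was 0.84.

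The remaining lists held smaller or less certain differences. Lpar3, a receptor for lysophosphatidic acid, had 0.50 ± 0.35 in WT (edgeR adjusted p = 0.756) at 0.169 to 0.377 CPM in WTSH, and Lpar5 had -0.23 ± 0.30 (adjusted p = 0.890). Lpar3 also gave -1.05 ± 0.33 in WTSH against KDSH (adjusted p = 0.811). Klb, the relative of Klotho, had 0.32 ± 0.24 (adjusted p = 0.788) and the FGF receptor gene Fgfr2 -0.18 ± 0.09 (adjusted p = 0.595). Fgf23, the hormone that binds with Klotho, had at most 24 counts. Of the coagulation genes, Tfpi, an inhibitor of the tissue factor pathway, had 0.35 ± 0.18 (adjusted p = 0.605) and Procr, the protein C receptor gene, 0.32 ± 0.31 (adjusted p = 0.841). Of the prostaglandin genes, Pparg had 0.28 ± 0.17 (adjusted p = 0.693) and Ptges, a prostaglandin E synthase gene, 0.25 ± 0.19 (adjusted p = 0.790). For Mfrp neither partner, C1qtnf5 or Prss56, passed the filter.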

How the data were processed

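Whole-hippocampus polyA RNA was sequenced by the study as 24 libraries (TruSeq v2 kit, which does not mark strand). After trimming with Skewer, STAR 2.5 was used by the authors for alignment to GRCm38, and HTSeq for counting unique alignments per gene symbol. The deposited counts are raw, with 49568 symbols per library. A deposited table scaled by the authors for 17 libraries was not used.

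Counts of 22 libraries were filtered with filterByExpr by group, scaled by TMM and fitted in R 4.3.3 with the quasi-likelihood test of edgeR 4.0.16, with a mean for each of 4 groups and 18 residual degrees of freedom. Adjusted p are Benjamini–Hochberg values over the 18482 genes tested. Calls needed an adjusted p no higher than 0.05 and a log2 fold change of at least 0.38 in either direction (1.3-fold), as in the study, which used DESeq2. Errors of fold changes are approximate SEs, back-calculated as the absolute log2 fold change over the square root of the quasi-likelihood F statistic. Printed CPM use TMM factors over all 49568 symbols (0.965 to 1.03). Log2 CPM for SDs and correlations use a prior count of 2. No pair of libraries held identical counts. Whether each library is 1 mouse is not stated, and p-values measure the spread between libraries.

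The genes and lists were chosen with earlier results of these data known. Named besides them are Rps6ka5, from each pathway list the 2 genes with the largest absolute fold change of WTEE over WTSH, the 3 genes most correlated with each gene, and up to 3 examples, by mean CPM, from each cell type list; Prl, Fgf23, C1qtnf5, Gm20444, Rnf26 and Prss56 were named after their values were seen. Some genes that this rule names are not reported here. Positions and exon lengths are from GENCODE M21, which uses GRCm38, and promoters from RefSeq. Alternatives were the 17 and all 24 libraries, DESeq2 1.42.0, its size factors in edgeR, no filter, at least 10 counts in every library, only the groups compared, no lettered libraries, the adjusted p alone, the mean log2 CPM of the 9 genes as a covariate for the pathway genes, CPM without TMM, Spearman's rho for likeness and each library left out in turn. Scripts were tested on simulated counts. Figures were drawn with matplotlib 3.10.9.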

Additional observations from a re-analysis of the deposited data

Results flagged for a closer look

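In KDSH, library 2 stood apart from the 5 others by Dixon's test at the 95% level for 5 of the 9 genes: Enpp2 at 1385 CPM with the next library at 255, Kl at 119 with the next at 26.3, Folr1 at 25.1 with the next at 2.56, Prlr at 33.1 with the next at 6.27, and F5 at 44.0 with the next at 4.39. Of 36 groups looked at, 5 passed the test, and chance gives about 5% of them; the 5 are 1 library in genes that vary together. Library 33B (WTEE), left out for failed quality control, held F5 at 32.6 CPM and Tmem72 at 23.4 CPM, above the highest WTSH library at 25.8 and 21.7 CPM under the scaling of all 24 libraries. In 33B Ttr was at 1220 CPM and Ptgds at 261 CPM. Library 34B held 16442 counts on genes in all, too few for any of the 9 to pass the floor except Ptgds, with 4 counts.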

How the results depend on the processing

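No paired analysis was possible because each library has a code of its own. Over the 17 libraries of the study, the log2 fold change of WTSH over KDSH turned positive for 8 genes: Ttr 1.18, Enpp2 0.24, Kl 0.22, Folr1 0.37, Prlr 0.24, F5 0.57, Tmem72 1.07 and Mfrp 0.53. With 1 library left out, these values ran from -1.58 to 2.5 for Ttr, -0.66 to 0.71 for Enpp2, -0.57 to 0.66 for Kl, -1.26 to 1.38 for Folr1, -0.70 to 0.85 for Prlr, -1.17 to 1.43 for F5, -1.72 to 2.60 for Tmem72, -1.63 to 1.95 for Mfrp and -0.25 to 0.027 for Ptgds, lowest without WTSH library 12 and highest without KDSH library 2. For WTEE over KDEE they ran from -0.049 to 0.87 for Ttr (lowest without 16), and, lowest without 33A, from -0.11 to 0.71 for Enpp2, -0.19 to 0.59 for Kl, -0.019 to 0.76 for Folr1, -0.48 to 0.46 for Prlr, -0.14 to 0.75 for F5, -0.30 to 0.69 for Tmem72 and -0.31 to 0.63 for Mfrp, each highest without 36A. Prlr, at -0.03, was 0.40 over the 17 libraries, 0.010 with DESeq2 and 1.32 without lettered libraries. The last of these settings keeps only libraries 16 and 17 in WTEE and 7, 8 and 9 in KDEE.

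Counts of called genes, 0 over the 22 libraries in each comparison, changed as follows. In WTEE against WTSH they were 664 over the 17 libraries (9 of the 9 genes and 6 pathway genes), 1 over all 24, 18 with DESeq2, 7 without the filter and 314 without lettered libraries (2 of the 9 genes and 1 pathway gene, Stra6). Without lettered libraries WTEE keeps only libraries 16 and 17, both above the gap in Ttr. Among the 6 pathway genes were Cish, Rbp4, Slc19a1, Slco1c1 and Stra6. In KDEE against KDSH they were 325 over the 17 libraries (8 of the 9 genes and 1 pathway gene, Cish) and 4 with DESeq2; in WTSH against KDSH 2 with DESeq2; in WTEE against KDEE 1 over the 17 libraries. With 1 library left out, the counts were 0 to 1 in WTEE against KDEE and in KDEE against KDSH, with 1 without KDEE library 9. None of the 9 genes was called between genotypes under any alternative. The cause was not tested. Of the genes most like each gene, 0 or 1 of 3 remained under Spearman's rho. The depth of the low libraries limits Tmem72 and Mfrp, at 3 and 4 counts in their lowest.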
